A study of Mus musculus with 8 samples.

Results

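The 7 Sox genes described here are Sox4, Sox11 and Sox12 (the SoxC group), Sox5, Sox6 and Sox13 (the SoxD group) and Sox9 (a SoxE factor). They were taken by symbol from a table of 24539 genes, all 7 were found, and all 7 passed the filter on low counts that left 13459 tested genes. They were measured by sequencing polyadenylated RNA of nephron progenitors, the cells of the embryonic kidney from which nephrons form, sorted by FACS at E18.5. Every embryo carried Six2GFPcre, which drives GFP and Cre from regulatory DNA of Six2, so WT-labelled controls carried Cre too. Each of 4 groups had 2 libraries. KO-labelled progenitors were Smo c/c, with 2 conditional alleles of Smo, the transducer of the Hedgehog pathway in the cell membrane, and Het-labelled progenitors were Smo c/+. WT-labelled progenitors were Smo +/+, and SmoM2-labelled progenitors were Smo +/+ with Rosa26 SmoM2/+, an allele from which Cre turns on an active form of Smo. The sources used here do not say how many embryos went into a library, and p-values measure the spread between these libraries only.

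Sox proteins bind DNA in the minor groove through a box of the high mobility group type and bend it. SoxC factors activate transcription and are widespread in embryonic progenitors, and mice that lack Sox4 or Sox11 have kidney defects. SoxD factors lack an activation domain, pair through a coiled coil, and are best known as helpers of Sox9 in cartilage. In the kidney Sox9 is known from the tips of the ureteric bud, where it acts with Sox8, and from the earliest nephron structures.

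Listed counts ranged from 4422305 to 10305398 per library, and both KO-labelled libraries lay below the other 6. Smo, the check of the labels, was at 11.1 and 13.1 CPM (the count scaled to library size) in the KO-labelled and at 14.4 and 23.9 CPM in Het-labelled libraries. It was at 363 and 374 CPM in WT-labelled and at 604 and 628 CPM with the SmoM2 label. The level under the Het label was near that under the KO label and so contradicted the genotype given. Groups are therefore named by label throughout. Of 14 progenitor markers 14 passed the filter, and Six2 had group means between 1231 and 1936 CPM. By Xist and Y-linked counts both KO-labelled libraries were male and both Het-labelled libraries female, while the other groups held 1 of each. Of 12 genes that tissue dissociation induces, 6 were called higher in KO-labelled and 8 in Het-labelled than in WT-labelled libraries. Their summed level was 4293 and 6342 CPM in KO-labelled, 8278 and 8476 CPM in Het-labelled, 3020 and 3183 CPM in WT-labelled, and 3436 and 4941 CPM in SmoM2-labelled libraries. Since this level went with the label, fits below with these genes as a covariate cannot cleanly separate the 2. In bulk RNA, fewer cells of a type and less RNA per cell cannot be told apart.

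The SoxC genes are short and compact. In the GENCODE annotation of GRCm38, Sox4 lies on chromosome 13 (28948919 to 28953713, minus strand) and Sox11 on chromosome 12 (27334264 to 27342574, minus strand), each with 1 exon. Sox12 lies on chromosome 2 (152393611 to 152398063, minus strand), with 1 or 2 exons by transcript. Their promoters are shown because Sox4 and Sox11 were called in at least 1 comparison below and their sister gene Sox12 in none. Each is the 250 bases before the start from RefSeq (GRCm38.p6), 5′ to 3′ along the gene, with CCAAT boxes in either orientation in capitals. The windows are chr13:28953700-28953949, chr12:27342719-27342968 and chr2:152398047-152398296, all on the minus strand. For all 3 genes the annotations differ, so distances hold for the RefSeq start only. For Sox11 the RefSeq gene starts at 27342718 and the GENCODE gene at 27342574, downstream of it. The RefSeq genes Sox4 and Sox12 start at 28953699 and 152398046, and the GENCODE genes upstream of them, at 28953713 and 152398063. The last bases of the Sox4 and Sox12 windows thus lie inside the GENCODE genes. This includes the Sox4 CCAAT box that begins 8 bases before the RefSeq start.
Sox4: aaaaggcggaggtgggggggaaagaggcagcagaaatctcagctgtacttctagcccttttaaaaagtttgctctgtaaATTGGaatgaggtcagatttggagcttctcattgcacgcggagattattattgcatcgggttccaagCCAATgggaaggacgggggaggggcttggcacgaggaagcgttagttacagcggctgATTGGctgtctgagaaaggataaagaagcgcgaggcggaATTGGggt
Sox11: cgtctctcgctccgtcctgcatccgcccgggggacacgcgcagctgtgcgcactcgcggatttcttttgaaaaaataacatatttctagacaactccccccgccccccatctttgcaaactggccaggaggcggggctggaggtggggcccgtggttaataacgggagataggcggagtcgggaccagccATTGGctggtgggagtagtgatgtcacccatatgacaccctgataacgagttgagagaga
Sox12: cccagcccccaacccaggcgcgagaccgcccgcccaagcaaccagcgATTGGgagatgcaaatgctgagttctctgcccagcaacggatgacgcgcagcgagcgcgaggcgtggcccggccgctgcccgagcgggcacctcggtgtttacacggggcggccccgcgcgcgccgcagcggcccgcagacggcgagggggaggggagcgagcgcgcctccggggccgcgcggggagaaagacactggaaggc
The Sox4 window held 4 CCAAT boxes (CCAAT or ATTGG), whose matches began 171, 104, 47 and 8 bases before the start. The Sox11 window held 1, at 60 bases, and the Sox12 window 1, at 203 bases. A CCAAT box was in 33.8% of the 32851 windows of this length in the table. The GC box GGGCGG, also searched on both strands, was found 2 times for Sox11, 3 times for Sox12 and 0 times for Sox4, and 32.7% of all windows held it. The GC content was 50.8%, 58.0% and 74.4% for Sox4, Sox11 and Sox12, against a median of 52.4%. The letters GACCACCCA, a match to the Gli consensus, were in none of the 3 windows and in 0.2% of all. The Sox motif AACAAT (9.4% of all windows), the AP-1 motif TGACTCA (4.5%) and the cAMP response element TGACGTCA (1.5%) were also in none of the 3. Of the 3 GC boxes of Sox12, 2 overlapped each other.

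Of the other members, the SoxD genes are spread over larger loci. Sox5 on chromosome 6 (143828425 to 144781977, minus strand) spans 953.6 kb and Sox6 on chromosome 7 (115470872 to 116038796, minus strand) 567.9 kb. Sox13 on chromosome 1 (133382303 to 133424377, minus strand) spans 42.1 kb. Sox9 on chromosome 11 (112782224 to 112787760, plus strand) has 3 exons in 5.5 kb. Of the RefSeq promoter table, 6 of the 7 members had an entry, and Sox9 did not. Sox4 overlaps the lincRNA Gm26735 on the opposite strand over 2616 exonic bases, and Sox5 overlaps Sox5os1 over 1330. Since the strand setting of the counting is not given in the sources used here, reads of these pairs cannot be told apart.

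Levels between genes were compared per length, on the authors' RPKM (reads scaled to gene length and library total). SoxC genes led, and Sox4 was the highest member in each of the 8 libraries. Sox4 ranged from 116 to 200 RPKM, and its mean exceeded that of 98.0% of tested genes. The table counts Sox4 over 2953 bases, against an exon length of 4795 in GENCODE. Its value thus depends on the shorter model, and its rank above Sox12 in each library may as well. Sox12 followed with 94.1 to 122 RPKM and Sox11 with 27.3 to 42.5 RPKM, above 96.5% and 86.1% of tested genes. Sox13 was the SoxD gene with the highest level, at 17.4 to 29.7 RPKM. Sox9 ranged from 2.76 to 11.1 RPKM, and 41.5% of tested genes had a lower mean. Sox6 was at 0.0928 to 0.387 RPKM and Sox5 at 0.0553 to 0.275 RPKM, near the bottom of the tested genes. Within each group the libraries of neighbours in this order did not overlap down to Sox6, while Sox6 and Sox5 overlapped in WT- and SmoM2-labelled libraries.

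**Figure D1:**
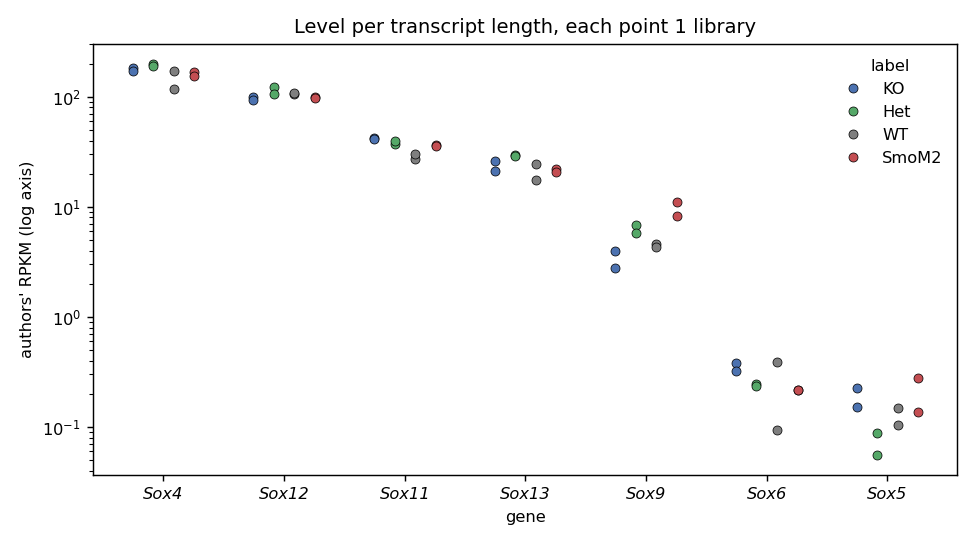
The authors' RPKM (log axis) of each Sox gene, with 1 point per library and colours for the labelled groups. Sox4 lies at 116 to 200 RPKM and Sox5 and Sox6 below 0.387 RPKM, and the order of the first 5 genes is the same in every group.

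Changes were tested with edgeR's quasi-likelihood model on the counts, with Benjamini-Hochberg adjustment over all 13459 tested genes. In KO- against WT-labelled libraries 1 of 7 members was called, and it was higher, while 23% of all tested genes were called, 11.6% higher and 11.4% lower. In Het- against WT-labelled libraries 3 of 7 were called, all higher, against 25.3% of all genes called, 13.1% higher and 12.2% lower. Between SmoM2- and WT-labelled libraries 1 of 7 was called, higher, against 0.223% of all genes called, 0.156% higher and 0.0669% lower. In KO- against Het-labelled libraries 1 of 7 was called, lower, against 9.43% of all genes called, 4.33% higher and 5.1% lower. The median log2 difference of the 7 members was 0.25, 0.45, 0.20 and -0.22 in these comparisons, and that of all tested genes 0.03, -0.02, 0.00 and 0.02. The first 3 comparisons share the WT-labelled libraries.

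**Figure D2:**
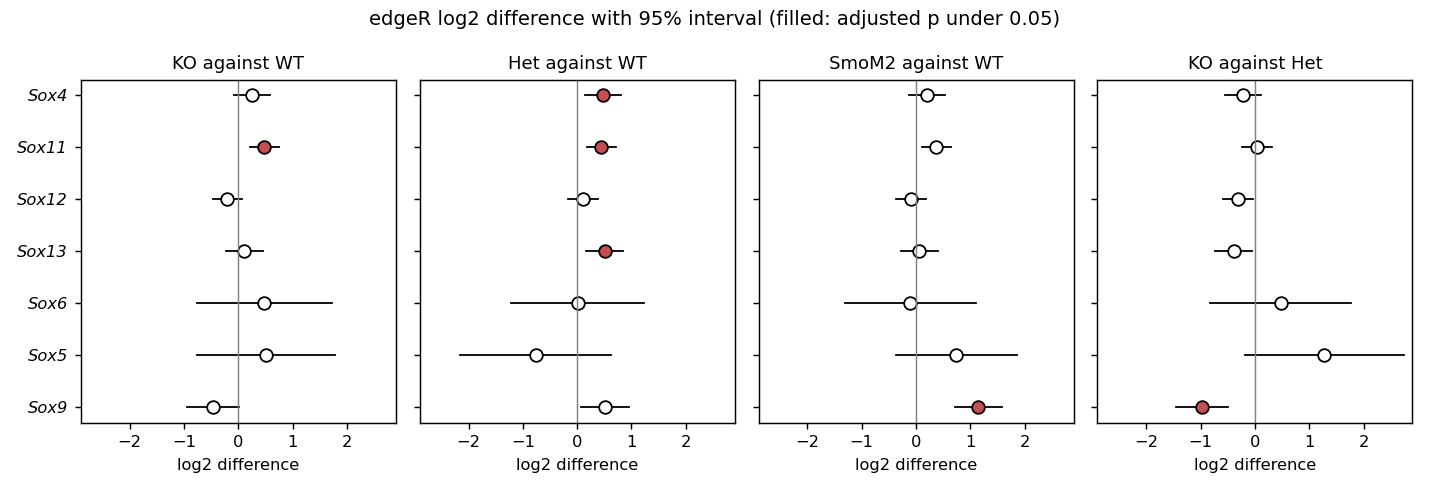
The edgeR log2 difference of each member (x axis) with its 95% interval in the 4 comparisons, filled where the adjusted p was under 0.05. Filled points are Sox11 in KO against WT, Sox4, Sox11 and Sox13 in Het against WT, and Sox9 in SmoM2 against WT and in KO against Het.

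Sox11, an activator known from neural and kidney progenitors, was lowest in the WT-labelled libraries. It was at 424 and 403 CPM in KO-labelled, 388 and 419 CPM in Het-labelled, 272 and 320 CPM in WT-labelled, and 388 and 380 CPM in SmoM2-labelled libraries. Both WT-labelled libraries lay below all 6 others, an order that 2.5% of tested genes shared. The level was 414 ± 15.0 CPM (SD, n = 2) in KO-labelled and 296 ± 33.6 CPM in WT-labelled libraries, which is 1.40-fold higher in the former (log2 0.48, SE 0.12, edgeR adjusted p 0.018). In Het-labelled libraries it was 404 ± 21.4 CPM (log2 0.45 against WT-labelled, SE 0.12, edgeR adjusted p 0.0221). Both calls depended on WT-labelled replicate 1: without it the log2 differences were 0.36 and 0.33 (edgeR adjusted p 0.107 and 0.129). The KO call was also lost without KO-labelled replicate 1 (edgeR adjusted p 0.0911), and the Het call without Het-labelled replicate 1 or 2 (0.098 and 0.178).

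The SmoM2-labelled level of Sox11 was 384 ± 5.27 CPM. Its log2 difference from WT-labelled libraries was 0.38 (SE 0.12, 95% interval 0.11 to 0.64) and did not pass the threshold (edgeR adjusted p 0.39), although the libraries did not overlap, as was so for 35.8% of all tested genes. KO- and Het-labelled libraries overlapped, with a log2 difference of 0.04 (95% interval -0.23 to 0.31). Over all 4 groups Sox11 was called (edgeR adjusted p 0.0286), against 41% of all tested genes. This call held in 10 of 17 alternatives. It was kept without KO-labelled replicate 2 or WT-labelled replicate 2 and lost without any other 1 library, with edgeR adjusted p up to 0.201 (without WT-labelled replicate 1). It was also lost with the dissociation genes as a covariate (0.156). With the mean of the dissociation genes as a covariate the KO difference kept its size (log2 0.49, SE 0.19) and lost its call (edgeR adjusted p 0.141), as did the Het difference (log2 0.45, SE 0.32, edgeR adjusted p 0.484).

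Sox4, the SoxC gene that nephron progenitors need to build a full number of nephrons, was highest in the Het-labelled libraries. It was at 634 and 588 CPM in KO-labelled, 726 and 696 CPM in Het-labelled, 593 and 433 CPM in WT-labelled, and 615 and 566 CPM in SmoM2-labelled libraries. Both Het-labelled libraries lay above all 6 others, as in 13.3% of tested genes, and WT-labelled replicate 2 lay apart below the rest. Sox4 was 711 ± 21.0 CPM in Het-labelled and 513 ± 113 CPM in WT-labelled libraries (n = 2 each), a log2 difference of 0.47 (SE 0.15, edgeR adjusted p 0.0399). This size rested on WT-labelled replicate 2: without it the log2 difference was 0.24 (edgeR adjusted p 0.29), and without WT-labelled replicate 1 it was 0.71 (edgeR adjusted p 0.0078). The call was also lost with listed totals as library sizes (edgeR adjusted p 0.062), and with those that the RPKM values imply (edgeR adjusted p 0.056). It was lost as well without any 1 of the Het-labelled or SmoM2-labelled libraries, with edgeR adjusted p between 0.0597 and 0.201, and in a fit of the 2 groups alone (0.064). With the dissociation genes as a covariate the difference was larger and less precise, at 0.90 (SE 0.37, edgeR adjusted p 0.23).

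KO- and WT-labelled libraries overlapped in Sox4, with a log2 difference of 0.25 (SE 0.15, edgeR adjusted p 0.248). SmoM2- and WT-labelled libraries overlapped as well, with 0.20 (SE 0.15, edgeR adjusted p 0.878). Both values turned on which WT-labelled library was kept. Without replicate 2 they were 0.011 and 0.0069, and without replicate 1 they were 0.49 and 0.45, of which the KO value was called (edgeR adjusted p 0.043) and the SmoM2 value was not (0.568). KO- against Het-labelled libraries differed by -0.22 (95% interval -0.55 to 0.11, edgeR adjusted p 0.378).

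Sox12, a weaker activator of the same group, was not called in any comparison. It was at 517 and 485 CPM in KO-labelled, 667 and 577 CPM in Het-labelled, 550 and 602 CPM in WT-labelled, and 545 and 539 CPM with the SmoM2 label. Its lowest value was in a KO-labelled and its highest in a Het-labelled library. The log2 difference of KO- from WT-labelled libraries was -0.20 (95% interval -0.47 to 0.07, edgeR adjusted p 0.266), and that of SmoM2- from WT-labelled libraries -0.09 (95% interval -0.36 to 0.18, edgeR adjusted p 0.949). Het- and WT-labelled libraries differed by 0.11 (95% interval -0.16 to 0.38), and KO- and Het-labelled libraries by -0.31 (SE 0.12, edgeR adjusted p 0.132). Summed over the 3 SoxC genes, the level was lowest in the WT-labelled (1355 and 1415 CPM) and highest in the Het-labelled libraries (1692 and 1782 CPM). KO-labelled libraries were at 1475 and 1576 CPM and SmoM2-labelled libraries at 1484 and 1547 CPM.

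Sox13, the SoxD factor with a clear level here, followed Sox4 closely. It was at 108 and 87.2 CPM in KO-labelled, 129 and 127 CPM in Het-labelled, 103 and 77.2 CPM in WT-labelled, and 96.3 and 91.8 CPM in SmoM2-labelled libraries. Both Het-labelled libraries were again above the other 6, and WT-labelled replicate 2 was again the lowest. The Het-labelled level of 128 ± 1.26 CPM compared with 89.9 ± 18.0 CPM in WT-labelled libraries (n = 2 each), a log2 difference of 0.51 (SE 0.15, edgeR adjusted p 0.0323). Without WT-labelled replicate 2 it was 0.29 (edgeR adjusted p 0.249), and without WT-labelled replicate 1 it was 0.73 (edgeR adjusted p 0.0142). It was also not called without Het-labelled replicate 1 or 2 (edgeR adjusted p 0.154 and 0.13), or with listed totals as library sizes (0.0555). With the dissociation genes as a covariate it was 0.99 (SE 0.37, edgeR adjusted p 0.185). Across the 8 libraries Pearson's r between Sox13 and Sox4 was 0.916 on log2 CPM, a description over libraries that include this low one.

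The KO- against WT-labelled difference of Sox13 was 0.11 (95% interval -0.23 to 0.46, edgeR adjusted p 0.626), and it turned to -0.11 without WT-labelled replicate 2. The SmoM2- against WT-labelled difference was 0.06 (95% interval -0.27 to 0.40, edgeR adjusted p 0.974), and it turned to -0.11 without the same library. KO-labelled libraries differed from Het-labelled ones by -0.39 (SE 0.16, edgeR adjusted p 0.131), short of the threshold although the libraries did not overlap, as was so for 56.9% of all tested genes. Over the 4 groups Sox13 was at an edgeR adjusted p of 0.0572.

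Sox5 and Sox6, the SoxD factors that support Sox9 in cartilage, were barely detected. Sox5 had 3 to 25 counts per library, with 1.33 and 1.96 CPM in KO-labelled, 0.801 and 0.509 CPM in Het-labelled, 1.30 and 0.979 CPM in WT-labelled, and 2.55 and 1.27 CPM in SmoM2-labelled libraries. Sox6 had 11 to 42 counts, with 4.2 and 3.48 CPM, 2.80 and 2.72 CPM, 1.02 and 4.57 CPM, and 2.55 and 2.54 CPM in the same order. The lowest and the highest Sox6 level were both in WT-labelled libraries. Neither gene was called in any comparison with all 8 libraries. Without WT-labelled replicate 2, the highest in Sox6, the KO- against WT-labelled difference of Sox6 was 1.86 and was called (edgeR adjusted p 0.0474), and without WT-labelled replicate 1, the lowest, it was -0.26. The SE of their log2 differences lay between 0.51 and 0.67, so only large changes were detectable at this depth. The largest difference, Sox5 in KO- against Het-labelled libraries, was 1.28 (95% interval -0.19 to 2.74, edgeR adjusted p 0.243).

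**Figure D3:**
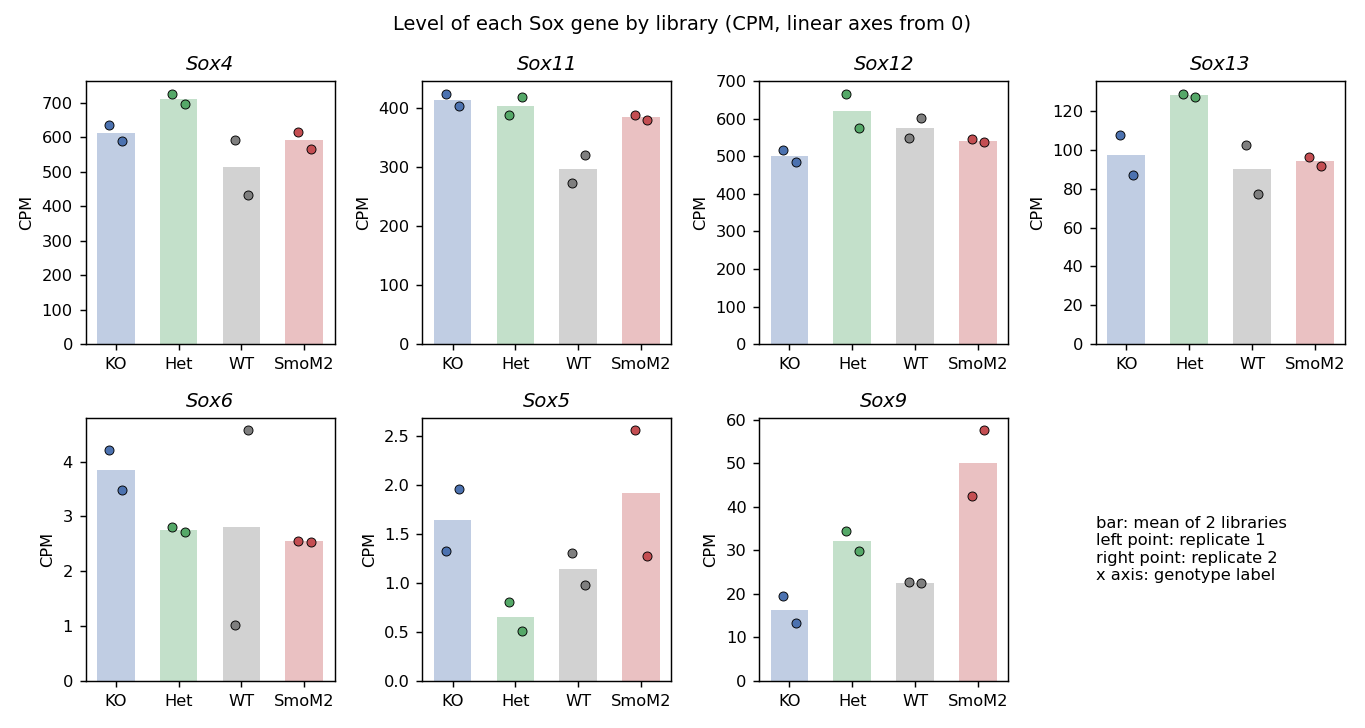
CPM of the 7 members by labelled group, with the mean of 2 libraries as a bar from 0 and each library as a point. Sox11 is lowest in the WT-labelled libraries, Sox4 and Sox13 are highest in the Het-labelled ones, and Sox9 runs from 13.3 CPM in a KO-labelled to 57.6 CPM in a SmoM2-labelled library.

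Sox9 separated the 4 groups. It was at 19.5 and 13.3 CPM in KO-labelled, 34.5 and 29.9 CPM in Het-labelled, 22.6 and 22.5 CPM in WT-labelled, and 42.5 and 57.6 CPM in SmoM2-labelled libraries. No pair of groups overlapped: KO-labelled libraries were the lowest, then WT-labelled, Het-labelled and SmoM2-labelled ones. The share of tested genes that separate all 4 groups was not counted. In the 4 comparisons made, 35.8% to 66.9% of tested genes did not overlap. Both KO-labelled libraries lay below and both SmoM2-labelled libraries above the other 4, an order that 2.75% of tested genes shared. Over the 4 groups Sox9 was called (edgeR adjusted p 0.000799), and this held in each of the 17 alternatives run, with adjusted p up to 0.00437.

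Sox9 rose in SmoM2- against WT-labelled libraries from 22.6 ± 0.0779 to 50.1 ± 10.7 CPM (n = 2 each), or 2.21-fold. The log2 difference was 1.15 (SE 0.20, 95% interval 0.71 to 1.58, edgeR adjusted p 0.0452). The call was marginal: it was lost when any 1 of the 8 libraries was left out, with adjusted p between 0.052 and 0.318, while the log2 difference stayed between 0.92 and 1.36. It was also lost with listed totals or RPKM totals as library sizes (edgeR adjusted p 0.0794 and 0.0599) and in a fit of the 2 groups alone (0.0774), and DESeq2 gave 1.16 with an adjusted p of 0.000656. In KO- against Het-labelled libraries Sox9 fell by 0.98 on the log2 scale (SE 0.22, edgeR adjusted p 0.0232), from 32.2 ± 3.25 to 16.4 ± 4.38 CPM. That call was lost without KO-labelled replicate 2 (log2 -0.73, adjusted p 0.109), without Het-labelled replicate 1 (-0.87, 0.151) and without Het-labelled replicate 2 (-1.09, 0.0537), all by edgeR. With the sex pattern of the libraries as a covariate, the difference was -0.75 (edgeR adjusted p 0.119). Since both KO-labelled libraries were male and both Het-labelled ones female, that fit took the sex effect from the WT- and SmoM2-labelled libraries. Within KO- and Het-labelled libraries alone, sex and label cannot be told apart.

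KO- and WT-labelled libraries did not pass the threshold in Sox9, with a log2 difference of -0.46 (95% interval -0.95 to 0.02, edgeR adjusted p 0.149). It was -0.77 without KO-labelled replicate 1 and -0.22 without KO-labelled replicate 2 (edgeR adjusted p 0.0894 and 0.552). Het- and WT-labelled libraries differed by 0.51 (95% interval 0.07 to 0.96, edgeR adjusted p 0.0841). This value was called with no filter beyond a single count (0.51, edgeR adjusted p 0.0378) and in a fit of the 2 groups alone (0.51, 0.0415). With the dissociation genes as a covariate it was 0.15 (SE 0.51, edgeR adjusted p 0.905). The libraries of these pairs did not overlap, as was so for 62% of all tested genes in the KO and 66.9% in the Het comparison. With the dissociation genes as a covariate, the SmoM2- against WT-labelled difference was 1.01 (edgeR adjusted p 0.302).

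Ureteric bud cells, where Sox9 marks the tips, were checked with 12 markers, of which 6 were tested. Their summed level was 36.1 and 36.1 CPM in KO-labelled, 25.9 and 30.2 CPM in Het-labelled, 41.6 and 43.6 CPM in WT-labelled, and 62.9 and 76.7 CPM with the SmoM2 label. It was highest where Sox9 was highest, and lowest in the Het-labelled libraries, where Sox9 was above its WT-labelled level. Most of the difference between SmoM2- and WT-labelled sums came from 1 gene, Wnt11, with Hoxb7, a homeobox gene of the duct, next at 27.5 against 21.8 CPM. Ret, the receptor that defines the tips, was at 1.40 CPM in SmoM2-labelled and 1.63 CPM in WT-labelled libraries, and the keratins Krt8 and Krt18 were at 2.81 against 2.67 and 6.28 against 5.06 CPM. Hoxb7, Ret, Krt8 and Krt18 were not called there. Gata3 and Aqp2 had at most 2 counts in any library, Calb1 at most 5 and Wnt9b at most 1. The member of this list called in SmoM2- against WT-labelled libraries was Wnt11, a Wnt ligand of the tips, with 9.78 and 7.51 CPM in WT-labelled and 24.1 and 34.2 CPM in SmoM2-labelled libraries (log2 1.75, SE 0.30, edgeR adjusted p 0.043). The part of these cells in the Sox9 levels was not tested. Sox10, the SoxE factor of neural crest, had at most 4 counts in any library.

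Genes of the signal through the receptor Ret, in which Sox9 and Sox8 act in the ureteric bud, formed a list of 8, all tested. Not all of them are genes that Sox9 acts on. In WT-labelled libraries Ret was at 1.63 CPM, against 557 CPM for Gfra1 and 319 CPM for Etv4. In KO- against WT-labelled libraries 5 were called lower and 1 higher, with a list median of -0.54. Of all tested genes 23% were called there, 25.3% in Het- and 0.223% in SmoM2- against WT-labelled libraries, and 9.43% in KO- against Het-labelled ones. Gfra1, the GDNF co-receptor, was at 135 ± 0.522 CPM in KO-labelled and 557 ± 44.5 CPM in WT-labelled libraries, a log2 difference of -2.05 (SE 0.15, edgeR adjusted p 3.41e-05), while Spry1, a feedback inhibitor of this signal, rose by 0.64 (edgeR adjusted p 0.0113). In Het- against WT-labelled libraries 1 was called higher and 2 lower, with a median of 0.08. In SmoM2- against WT-labelled libraries Wnt11 was the 1 called member, and the median was 0.04. In KO- against Het-labelled libraries 3 were called lower, Gfra1 (-0.89), Gdnf (-0.75) and Etv5 (-0.55), with edgeR adjusted p from 0.00808 to 0.0444 and a median of -0.36. Sox9 was called lower in the same comparison, and a link between Sox9 and these genes was not tested.

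The cartilage list holds 11 matrix genes that Sox9 drives with Sox5 and Sox6, and 7 were tested. Col2a1, the main collagen of cartilage, was abundant, at 820 to 1457 CPM over the 8 libraries, and it was not called in any comparison. Acan, the cartilage proteoglycan, had at most 2 counts. In KO- against WT-labelled libraries 2 members were called, both lower: Col9a1 (log2 -1.94, SE 0.32, edgeR adjusted p 0.00199) and Col11a1 (log2 -1.60, SE 0.23, edgeR adjusted p 0.00106). The same genes were called lower in Het- against WT-labelled libraries (-1.63 and -0.65), where Matn1 was called higher (0.86). Col11a1 was at 8.85 and 9.14 CPM in KO-labelled, 17.2 and 17.6 CPM in Het-labelled, 22.2 and 32.6 CPM in WT-labelled, and 40.1 and 46.3 CPM with the SmoM2 label. It was the 1 member called in KO- against Het-labelled libraries (-0.95, SE 0.24, edgeR adjusted p 0.0319). In SmoM2- against WT-labelled libraries 0 of the 7 were called, and the list median was -0.04. Col11a1 differed there by 0.66 and Matn1 by -1.09 (edgeR adjusted p 0.312 and 0.263). Of all tested genes, 23% were called in KO-, 25.3% in Het- and 0.223% in SmoM2- against WT-labelled libraries. In KO- against Het-labelled ones 9.43% were called.

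**Figure D4:**
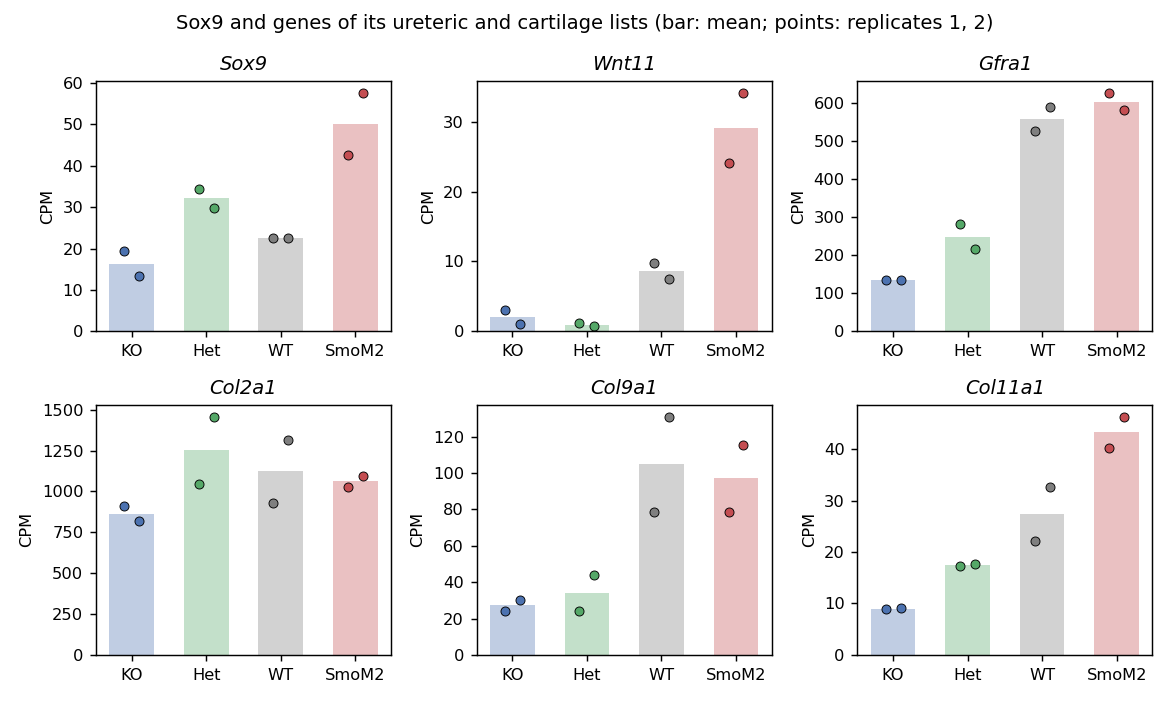
CPM of Sox9 and of 5 genes from its ureteric and cartilage lists by labelled group, with the mean as a bar from 0 and each library as a point. Wnt11 and Col11a1 are highest in the SmoM2-labelled libraries like Sox9, though Col11a1 was not called there against WT (log2 0.66, edgeR adjusted p 0.312). Unlike Sox9, both are lower with the Het than with the WT label (means 0.94 against 8.64 and 17.4 against 27.4 CPM). Gfra1 and Col9a1 differ mainly between the KO- and Het-labelled and the other libraries.

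The list of genes linked to SoxC had 4 members, of which 3 were tested. Tead2, a SoxC target that works in the Hippo pathway, was at 412 to 506 CPM and was not called in any comparison. In KO- against WT-labelled libraries Ezh2, a histone methyltransferase, was called higher (log2 0.68, SE 0.16, edgeR adjusted p 0.0123) and Dcx, a neuronal microtubule protein, lower (log2 -0.82, SE 0.27, edgeR adjusted p 0.0478). No member was called in the other 3 comparisons. Tubb3, a neuronal tubulin that Sox11 activates, had at most 6 counts.

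Of 13 further Sox genes, 11 were not tested and had at most 7 counts in any library, and 3 of these, Sox1, Sox14 and Sry, were listed at 0 in all. Sox8, the SoxE partner of Sox9, was at 4.87 and 4.35 CPM in KO-labelled, 8.68 and 9.50 CPM in Het-labelled, 9.22 and 5.66 CPM in WT-labelled, and 8.79 and 8.89 CPM in SmoM2-labelled libraries. Both KO-labelled libraries were below the other 6, an order whose share of all tested genes was not counted. KO- and WT-labelled libraries did not overlap in 62% of tested genes, and KO- and Het-labelled ones in 56.9%. KO- and Het-labelled libraries differed by -0.98 on the log2 scale (SE 0.32, edgeR adjusted p 0.0763), and against WT-labelled libraries -0.70 (SE 0.32, edgeR adjusted p 0.134), neither past the threshold. Its SmoM2- against WT-labelled difference was 0.24 (95% interval -0.36 to 0.84). Sox30, known from the testis, had 5 to 21 counts and was not called.

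Markers of the progenitor and of early nephron structures give the setting of these changes. Of 14 progenitor genes, 8 were called higher and 1 lower in Het- against WT-labelled libraries, where Sox4, Sox11 and Sox13 were called higher, and 5 higher in KO- against WT-labelled libraries. Of 12 tested early nephron genes, where Sox9 and Sox4 are also known to be active, 10 were called higher in KO- against WT-labelled and 9 in KO- against Het-labelled libraries. Their summed level was 1434 and 1766 CPM in KO-labelled and between 496 and 812 CPM in the other libraries. Sox9 was lowest in the KO-labelled libraries. Of 12 stromal markers 11 were tested, and 2 were called higher and 1 lower in each of the KO- and Het- against WT-labelled comparisons. Of all tested genes, 23% were called in the KO- and 25.3% in the Het- against WT-labelled comparison, and 9.43% in KO- against Het-labelled libraries. Foxd1, the transcription factor of stromal progenitors, was at 12.8 and 3.70 CPM in KO-labelled, 22.4 and 14.6 CPM in Het-labelled, 196 and 171 CPM in WT-labelled, and 384 and 300 CPM in SmoM2-labelled samples. It was called lower in KO- and Het-labelled libraries (log2 -4.48 and -3.30, edgeR adjusted p 4.9e-05 and 0.000101), not in SmoM2- against WT-labelled ones (0.90, 0.323). Like Sox9 it was lowest with the KO label and highest with the SmoM2 label. In Het-labelled libraries the 2 genes went opposite ways: Foxd1 lay below its WT-labelled level and Sox9 above its own (log2 0.51, not called). Tcf21 and Meis1 were called higher in KO-labelled (2.07 and 2.68) and Het-labelled libraries (1.91 and 2.89). KO-labelled replicate 1 stood apart from replicate 2 in stromal collagen, with 379 against 32.8 CPM of Col1a1, and had the higher Sox9 level of the pair. The Het- and SmoM2-labelled pairs went the other way. There the library with more Sox9 had less Col1a1, at 70.4 against 181 CPM and 138 against 148 CPM. WT-labelled libraries had 145 and 80.3 CPM of Col1a1, with Sox9 at 22.6 and 22.5 CPM. The part of these markers in the Sox levels was not tested.

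Genes whose pattern was most like each member were sought by Pearson's r of log2 CPM over the 8 libraries among genes with an average log2 CPM of at least 3. For Sox9 they were Cblb (r 0.971), Cdyl2 (0.94) and Gypc (0.937). For Sox13 they were Six3 (0.993), Skiv2l (0.972) and Pgs1 (0.969), and for Sox4 Cldn9 (0.962), the progenitor gene Osr1 (0.953) and Plin3 (0.939). For Sox11 they were Ntn3 (0.956), Nkain1 (0.941) and Glul (0.927), and for Sox12 Tcf7l1 (0.951), Phrf1 (0.95) and Atxn7l3 (0.931). Sox5 was nearest to Rpl15 (0.933), Hars (0.918) and Tango6 (0.916), and Sox6 to Mettl1 (0.939), Macrod1 (0.936) and Comtd1 (0.91). An r of 0.9 or more was found for 33 of 10231 genes with Sox4 and for 68 of 10231 with Sox13. The r of 0.916 between Sox4 and Sox13 was below those of the 3 genes named for each. These values are a description over libraries that share groups, and those of Sox5 and Sox6 rest on few counts. Among the members themselves, Sox4 and Sox13 had the highest r, while Sox9 lay between -0.228 and 0.386 with the others.

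Neighbouring protein-coding genes were compared with each member by position. Sox12 has Nrsn2 and Zcchc3 17 kb and 13.9 kb away, and neither was called in any comparison. Beside Sox13, Etnk2, 2.0 kb away, was called lower in Het- against WT-labelled libraries (log2 -1.81, edgeR adjusted p 0.0477), the comparison in which Sox13 was called higher. Sox9 lies 1705.4 kb from Kcnj2 and 457.1 kb from Slc39a11, and Slc39a11 was not called in any comparison. Sox11 lies 854.4 kb from Cmpk2, and Sox4 238.0 kb from Cdkal1, and neither neighbour was called in any comparison. On the other side of Sox13, 179.5 kb away, Snrpe was called lower in Het- against WT-labelled libraries (-0.65, edgeR adjusted p 0.0083) and higher in KO- against Het-labelled ones (0.86, 0.00859). Bcat1, 211.9 kb from Sox5, was called lower in Het- against WT-labelled libraries (-3.18, edgeR adjusted p 0.00934). The gene 1110004F10Rik, 0.6 kb from Sox6, was called lower there (-0.47, edgeR adjusted p 0.0233) and higher in KO- against Het-labelled libraries (0.57, 0.0257). Etnk1, on the other side of Sox5, was not called in any comparison. The nearest genes on the remaining sides of Sox4, Sox11, Sox6 and Sox9 were not tested. Of all tested genes, 25.3% were called in Het- against WT-labelled and 9.43% in KO- against Het-labelled libraries. A link between the calls of neighbours and of members was not tested.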

How the data were processed

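RNA of 8 libraries of sorted nephron progenitors was sequenced, with 2 libraries for each of 4 genotype labels. Per the labels and the submitters' processing notes, poly(A) RNA was used, and STAR, featureCounts of Subread and the mm10 build are named. Versions, annotation and strand setting are not given in the sources used here. The authors deposited raw read counts per gene and RPKM values with a gene length, per the file headers. Counts were tested with edgeR 4.0.16 (R 4.3.3): filterByExpr, TMM scaling, and a quasi-likelihood model with a mean per group over all 8 libraries, with 4 residual degrees of freedom. Benjamini-Hochberg adjustment covered all tested genes, with a threshold of 0.05, and SEs are those the statistic implies. CPM use the scaled library size, and log2 CPM a prior count of 2. The listed counts were 81.1% to 83.3% of the totals that RPKM implies. The steps were checked on simulated counts. An exact permutation test of 2 against 2 libraries cannot go below 0.333 and was not used.

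The members and the gene lists were chosen with earlier results of these data known. Named genes are the 7 members, the other Sox genes, up to 4 called genes per list and comparison, and the 3 genes most like each member; other members of these lists named with their levels, the neighbours and the overlapping genes were chosen after values were seen. Alternatives were other scalings (RLE, none, RPKM totals), other filters, DESeq2 1.42.0, fits of the 2 groups alone, a replicate block, a dissociation score, and each library left out. A fit with the sex pattern was added after seeing the data. GENCODE and RefSeq sequences are of GRCm38, the mm10 assembly.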

Additional observations from a re-analysis of the deposited data

How the results depend on the processing

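With the dissociation score as a covariate, 1022 genes were called in KO against WT, 99 in Het against WT, 12 in SmoM2 against WT, 387 in KO against Het and 3491 over 4 groups, instead of 3100, 3402, 30, 1269 and 5514. Of the 7 members it left 0 called in each pairwise comparison and 1 over 4 groups (2 otherwise), while the Het against WT differences of Sox4 and Sox13 grew from 0.47 to 0.90 and from 0.51 to 0.99. The dissociation genes summed to 8278 and 8476 CPM in Het and to 3020 and 3183 CPM in WT libraries. Score and label are thus confounded, and the cause of the lost calls was not tested. With no filter beyond a single count, 2217 genes were called in KO against Het and 356 in SmoM2 against WT, and 4 members over 4 groups. SmoM2 against WT gave 16 genes without scaling factors, 54 with the replicate block, 54 with the sex pattern, 8 with the 2 groups alone and 77 with DESeq2. Members called were 1 without scaling factors in Het against WT. They were 0 in SmoM2 against WT without scaling factors, with RPKM totals and with the 2 groups alone. They were 0 in KO against WT with the 2 groups alone, 0 in KO against Het with the sex pattern, and 4 over 4 groups with the sex pattern or DESeq2.

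Leaving out 1 library at a time gave 1305 to 2924 genes in KO against WT, 1411 to 3616 in Het against WT, 8 to 81 in SmoM2 against WT, 36 to 1472 in KO against Het and 3656 to 5510 over 4 groups. The lowest came without KO replicate 1, without Het replicate 2, without WT replicate 1 or SmoM2 replicate 1, and, in KO against Het and over 4 groups, without Het replicate 1. Counts also moved by over 1.5 times in KO against WT without WT replicate 1 (2038) or 2 (1955), and in Het against WT without Het replicate 1 (1468) or WT replicate 2 (2089). In SmoM2 against WT they did so without KO replicate 1 or 2 (9 each), SmoM2 replicate 2 (10) or WT replicate 2 (81), and in KO against Het without KO replicate 1 (377) or 2 (551) or Het replicate 2 (365). Members called ranged from 0 to 2, 0 to 3, 0 to 0, 0 to 1 and 1 to 3. Of the calls higher, the share moved from 45.9% to 60.6% without scaling factors and 64.7% with RPKM totals in KO against Het, and from 70% to 56.3% and 59.3% in SmoM2 against WT.

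Directions turned for members not called with all libraries. Sox6 in Het against WT (0.01) was -0.00099 without scaling factors, -0.49 with the dissociation score and -0.33 with the sex pattern, and Sox6 in SmoM2 against WT (-0.11) was 0.079 with the sex pattern. Sox5 in Het against WT (-0.77) was 0.62 with the dissociation score. With 1 library left out, Sox6 ranged from -0.72 to 1.39 in Het, -0.26 to 1.86 in KO (the highest called, adjusted p 0.0474 by edgeR) and -0.84 to 1.31 in SmoM2 against WT, Sox13 from -0.11 to 0.33 in KO and -0.11 to 0.28 in SmoM2 against WT, Sox12 from -0.031 to 0.20 in Het against WT, and Sox11 from -0.021 to 0.071 in KO against Het. The cause was not tested.

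The deviations of libraries with the same replicate number correlated at 0.391 between WT and SmoM2. In the other pairs of groups they correlated between -0.0606 and 0.0997. In both WT and SmoM2, replicate 1 was male and replicate 2 female, so replicate number and sex cannot be told apart there. With the replicate block Sox13 passed over 4 groups (adjusted p 0.0254 by edgeR), while the block changed no other call of a member. Depth limits Sox5 and Sox6, with at most 25 and 42 counts.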
